A study of Mus musculus with 6 samples.

Results

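The genes described here are Trp53, the mouse gene of the transcription factor p53, and 9 genes that p53 is known to activate: Mdm2, Cdkn1a, Ccng1, Plk2, Gadd45a, Eda2r, Phlda3, Zmat3 and Sesn1. They were taken by their symbols, and all 10 were found among the 22913 genes with counts. All 10 passed the filter on low counts that left 12827 genes to test. RNA was sequenced from HL-1 cells, a line derived from mouse atrial heart muscle cells, 48 h after transfection with the cationic lipid reagent lipofectAMINE 2000. The HSPA1A group carried an overexpression plasmid for HSPA1A, the stress-inducible chaperone of the HSP70 family, and the control group carried a control plasmid. Each group held 3 libraries, and the labels call the transfected gene human. Both groups went through the same transfection, so the comparison is between 2 plasmids and holds no untransfected cells.

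The p53 protein is held at low levels in unstressed cells by the ubiquitin ligase that Mdm2 encodes, and stress to DNA or ribosomes frees it to bind DNA and activate its targets. Some of these targets stop the cell cycle, some promote cell death or repair, and Mdm2 itself closes a feedback loop that lowers p53 again. HL-1 cells descend from an atrial tumour of mice that expressed the SV40 large T antigen in atrial muscle cells, a viral protein that binds p53 and is known to block much of its activity. Counts of mouse genes do not measure that antigen, and p53 protein was not measured.

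The libraries held 23849656 to 26897086 counts. No label ties the replicates to separate cultures, so each p-value reflects only how far the libraries vary, possibly for technical reasons. HSPA1A replicate 2 stood apart from its group: over all genes its counts differed from those of HSPA1A replicates 1 and 3 by a chi-square per degree of freedom of 26.1 and 21.8, against 7.42 between replicates 1 and 3 and 2.68 to 9.06 between control libraries. On the first principal component, the axis of largest variation between libraries (40.3%), it lay at 11.4, on the side of the control libraries at 3.18 to 6.20. HSPA1A replicates 1 and 3 lay at -11.4 and -13.2. Mouse Hspa1a had 17, 20 and 11 reads in the HSPA1A libraries and 10, 17 and 11 reads in the control libraries, a log2 fold change of 0.39 (edgeR's adjusted p = 0.795), so these counts do not show the overexpression. Among 15 heart muscle markers, 13 were in the table and 5 averaged at least 1 FPKM (Tnnt2, Tnnc1, Nkx2-5, Gata4 and Des). The defining genes Actc1, Actn2, Tnni3 and Ryr2 had 3, 1, 7 and 11 reads over all 6 libraries, and the atrial markers Myl4 and Gja5 averaged under 1 FPKM. Summed over the 13 genes, heart muscle markers stood at 207 to 239 FPKM in the HSPA1A libraries and 241 to 249 FPKM in the control libraries. Most of that sum was Des, at 179, 179.5 and 167 FPKM in the HSPA1A libraries and 193, 206 and 205 FPKM in the control libraries, while Tnnt2 and Tnnc1 had slightly higher means with HSPA1A and overlapped. Of the fibroblast markers, 3 of 6 averaged at least 1 FPKM, with a sum of 65.5 to 71.8 FPKM in the HSPA1A libraries and 73.8 to 75.9 FPKM in the control libraries. No endothelial marker of 5 reached that level, and of 4 macrophage markers in the table Cd68 did, the list summing to 2.97 to 5.47 FPKM in the HSPA1A libraries and 2.31 to 3.96 FPKM in the control libraries. These sums are on FPKM, where 13.6% of all tested genes lay apart with HSPA1A lower. On CPM, read counts scaled by library size and a TMM factor, the fibroblast genes Col1a1, Col1a2 and Dcn overlapped between the groups. Des stayed apart on CPM with HSPA1A lower, as did 7.17% of all tested genes. The part of the shifts in marker sums, and of the library that stood apart, in the results for p53 genes was not tested beyond the fits without single libraries. The noncoding transcript Yam1, which takes a share of counts that differs between libraries, held 2.70%, 1.58% and 2.53% of counts in HSPA1A replicates 1 to 3 and 1.86%, 1.18% and 1.23% in control replicates 1 to 3.

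Most of the 10 genes were strongly expressed in HL-1 cells. On the length-scaled FPKM of the authors' table, Gadd45a, a small stress-response protein gene that binds the replication factor PCNA and stress kinases, was the most abundant at 355 ± 10.3 FPKM (mean ± SD over all 6 libraries), which placed it at rank 198 of 22833 genes. Cdkn1a, which encodes the cyclin-dependent kinase inhibitor p21, followed at 128 ± 6.62 FPKM, and Trp53 itself stood at 97.0 ± 9.30 FPKM. Mdm2 was at 72.8 ± 3.39 FPKM. Each of these 4 genes was separated from the next in every library. Phlda3, Plk2 and Ccng1 came next at 53.8 ± 4.28, 52.3 ± 5.53 and 51.2 ± 2.84 FPKM, and their ranges over the libraries overlapped. Their order within a library differed between the groups. In every control library Plk2 was the highest of them and Ccng1 the lowest, while in every HSPA1A library Plk2 was the lowest. The ranges of Zmat3 at 7.45 ± 0.362 FPKM and Eda2r at 6.50 ± 0.429 FPKM also overlapped, but Zmat3 was above Eda2r in each of the 6 libraries. Sesn1 was the lowest, at 1.27 ± 0.232 FPKM and rank 10156. The related transcription factor genes Trp63 and Trp73 were near 0, with 7 reads and 1 read over all 6 libraries, and neither was tested.

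**Figure D1:**
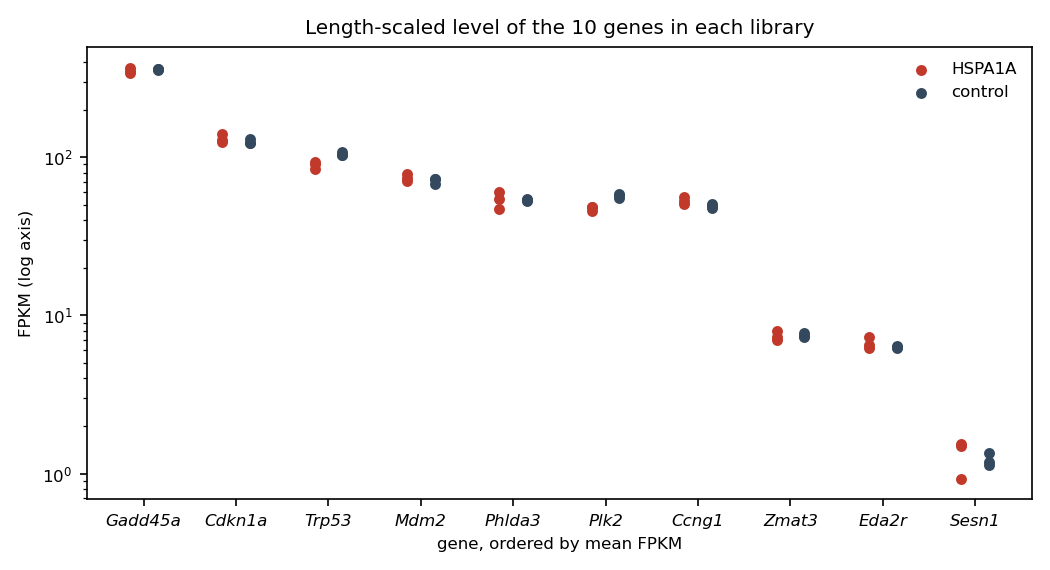
FPKM of each gene in each library on a log axis, with the 3 HSPA1A libraries left of the 3 control libraries and genes ordered by their mean. Gadd45a is highest at 338 to 369 FPKM and Sesn1 lowest at 0.930 to 1.54 FPKM, and Trp53 and Plk2 are the genes whose HSPA1A points all lie below their control points. On FPKM 13.6% of all tested genes lie apart in that direction.

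None of the 10 genes passed the test between HSPA1A and control cells, which was the quasi-likelihood test of edgeR with a Benjamini-Hochberg threshold of 0.05 over all tested genes. Over all tested genes 0.179% passed, 0.0234% higher and 0.156% lower. Differences were small, with log2 fold changes from -0.21 for Plk2 to 0.17 for Sesn1, a median of 0.089 for the 10 genes and a median of 0.0029 for all tested genes. In 4 of the 10 the 3 HSPA1A libraries did not overlap the 3 control libraries on CPM, read counts scaled by library size and a TMM factor: Trp53 and Plk2 were lower, and Mdm2 and Ccng1 were higher. Over all tested genes 14.5% had groups that did not overlap, 7.17% with HSPA1A lower and 7.3% with HSPA1A higher. On library totals alone that share was 15.2%, with 11% lower in HSPA1A libraries. On FPKM it was 16.5%, with 13.6% lower, so separation in that direction was more common on those scales. The same 4 genes had an unadjusted p under 0.05, against 8.59% of all tested genes (4.33% higher, 4.26% lower). DESeq2 called 0 of the 10 at its adjusted threshold, and 63 of all 12827 tested genes. In bulk RNA, a level that is lower in every cell and a smaller number of cells that express the gene cannot be told apart.

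**Figure D2:**
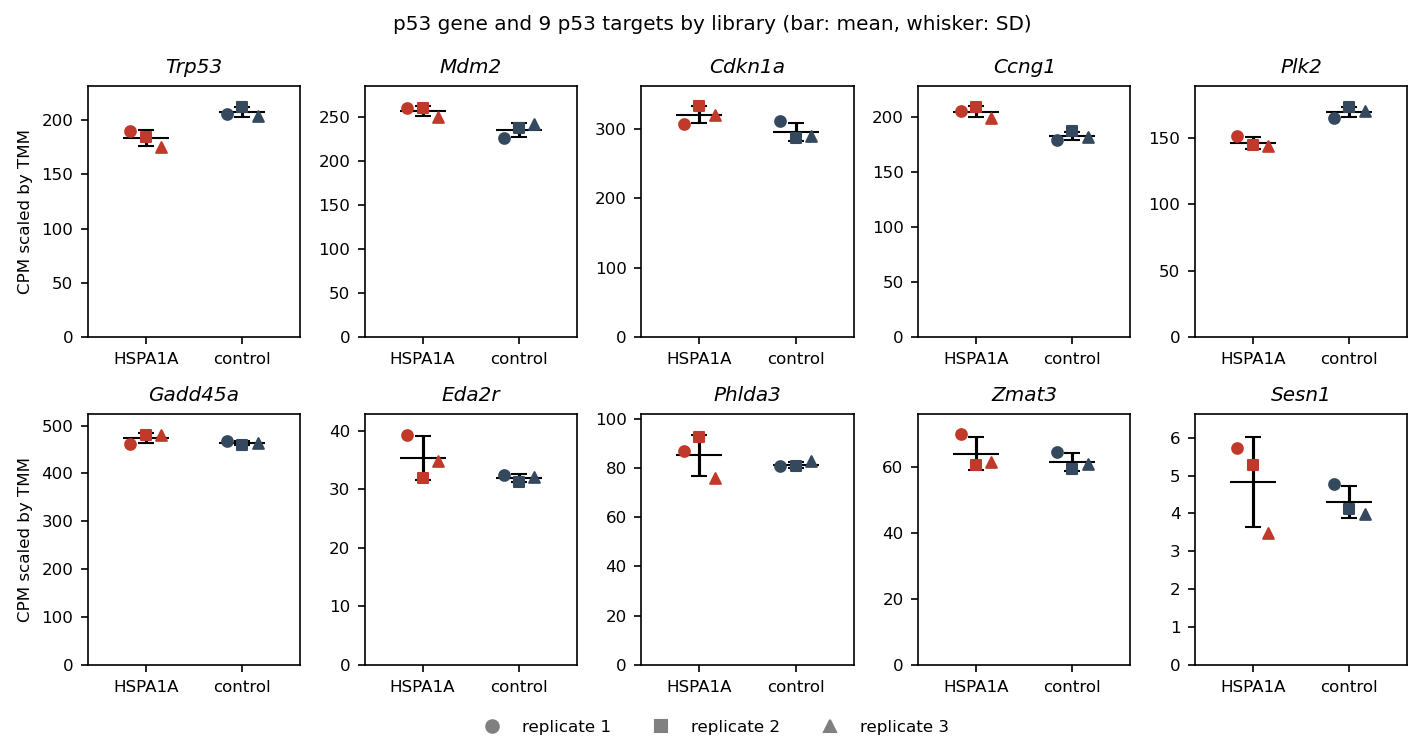
CPM scaled by TMM for each gene, with the 3 HSPA1A libraries left and the 3 control libraries right, on axes that start at 0. Horizontal bars are group means and whiskers the SD of 3 libraries, and the marker shape gives the replicate. Trp53 and Plk2 have every HSPA1A point below every control point, Mdm2 and Ccng1 have every HSPA1A point above, and the other 6 genes overlap.

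The regulatory sequence just upstream of the start sites is shown for the 4 genes whose groups did not overlap and for Cdkn1a, since p53 acts by binding paired 10-base half-sites in DNA. The windows are the 250 bases before each annotated start in RefSeq (GRCm38.p6), 5′ to 3′ on the gene's strand, and 9 of the 10 genes had at least 1 window in that table. The search was for the p53 half-site, 2 of them abutting with at most 1 mismatch in 20 bases. The site reads the same on both strands, so both were covered. Capitals mark such a pair in Cdkn1a and Ccng1, and a single exact half-site in Trp53 and Mdm2. The Plk2 window held no match.
Cdkn1a (chr17:29090729-29090978, plus strand): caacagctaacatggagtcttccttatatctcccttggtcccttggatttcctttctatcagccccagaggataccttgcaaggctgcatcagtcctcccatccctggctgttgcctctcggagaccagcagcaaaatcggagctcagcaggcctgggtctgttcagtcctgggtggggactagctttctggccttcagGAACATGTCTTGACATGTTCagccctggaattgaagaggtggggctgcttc
Ccng1 (chr11:40755287-40755536, minus strand): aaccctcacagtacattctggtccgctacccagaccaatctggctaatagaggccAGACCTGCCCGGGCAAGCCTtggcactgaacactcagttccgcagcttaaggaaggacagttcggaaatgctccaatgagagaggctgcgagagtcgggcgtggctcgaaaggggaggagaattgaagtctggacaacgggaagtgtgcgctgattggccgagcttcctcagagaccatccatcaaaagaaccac
Mdm2 (chr10:117710759-117711008, minus strand): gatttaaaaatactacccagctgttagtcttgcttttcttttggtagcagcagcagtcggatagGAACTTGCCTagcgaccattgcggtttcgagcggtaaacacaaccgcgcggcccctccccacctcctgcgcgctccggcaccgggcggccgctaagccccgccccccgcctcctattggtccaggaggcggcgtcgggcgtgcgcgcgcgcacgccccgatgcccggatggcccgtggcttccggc
Trp53 (chr11:69580109-69580358, plus strand): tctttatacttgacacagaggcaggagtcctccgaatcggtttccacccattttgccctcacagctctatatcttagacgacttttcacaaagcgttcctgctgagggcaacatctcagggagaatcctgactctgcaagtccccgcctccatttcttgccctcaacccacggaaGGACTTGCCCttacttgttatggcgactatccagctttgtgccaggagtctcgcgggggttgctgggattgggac
Plk2 (chr13:110394794-110395043, plus strand): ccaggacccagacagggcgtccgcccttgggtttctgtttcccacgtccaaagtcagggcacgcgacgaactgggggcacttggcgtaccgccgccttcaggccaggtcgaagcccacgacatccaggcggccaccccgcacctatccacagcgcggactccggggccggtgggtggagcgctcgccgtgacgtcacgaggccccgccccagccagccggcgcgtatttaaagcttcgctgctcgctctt

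The pair in Cdkn1a began 51 bases before the more upstream of its 2 annotated starts, and the window before the other start held none. The pair in Ccng1 began 195 bases before the start. Over the 11 windows of the 9 genes, 2 held a pair, against 25 of 32851 windows (0.0761%) in the whole table, and 6 of 11 held at least 1 exact half-site, against 7.13% of all windows. The windows with a pair are among those 6. The genes were listed as p53 and its known targets, so these shares are no independent test of the list. A match describes these letters only, binding was not measured, and sequence further from the start was not searched.

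Trp53 (ENSMUSG00000059552.11, chromosome 11, 69580359 to 69591873 on the plus strand of GRCm38) stood at 189.9, 185 and 175 CPM in HSPA1A replicates 1 to 3 and 205, 212 and 203 CPM in control replicates 1 to 3. All 3 HSPA1A libraries lay below all 3 control libraries, and HSPA1A replicate 3 was the lowest. The means were 183 ± 7.45 CPM with HSPA1A and 207 ± 4.58 CPM with the control plasmid (SD, n = 3 each), 11.5% lower in HSPA1A cells. On the log2 scale the fold change was -0.18 (95% interval -0.29 to -0.061, unadjusted p = 0.00652, edgeR's adjusted p = 0.424). The groups were also apart on library totals alone and on FPKM, at 91.0, 92.7 and 83.7 FPKM in HSPA1A libraries and 103, 108 and 103 FPKM in control libraries. On those scales 11% and 13.6% of all tested genes lay apart with HSPA1A lower, against 7.17% on CPM. A processed pseudogene of Trp53 on chromosome 17 had no reads in the table.

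Mdm2 (ENSMUSG00000020184.12, chromosome 10, 117688875 to 117710758 on the minus strand), the ligase that marks p53 for degradation, had 259.6, 260.0 and 249.9 CPM in HSPA1A libraries and 227, 238 and 242 CPM in control libraries. The lowest HSPA1A library was above the highest control library by a few percent. The log2 fold change was 0.12 (95% interval 0.011 to 0.24, adjusted p = 0.547 by edgeR's quasi-likelihood test). This separation depended on the scaling: on library totals alone and on FPKM the groups overlapped, with 74.2, 77.9 and 71.2 FPKM in HSPA1A libraries and 67.6, 72.5 and 73.3 FPKM in control libraries. Mdm4, which encodes an inhibitory partner of Mdm2 that also binds p53, stood at 50.3 ± 1.52 CPM with the HSPA1A plasmid and 52.7 ± 1.84 CPM with the control plasmid (SD, n = 3 each). Its groups overlapped on this scale. They lay apart, with HSPA1A lower, on library totals alone and on FPKM, as for 11% and 13.6% of all tested genes.

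Of the targets that act on the cell cycle, Cdkn1a (ENSMUSG00000023067.11, chromosome 17, 29090976 to 29100727 on the plus strand) had 308, 333 and 320.5 CPM in HSPA1A libraries and 311, 288 and 289.6 CPM in control libraries. The groups overlapped, because control replicate 1 stood above HSPA1A replicate 1. The log2 fold change was 0.11 (95% interval -0.009 to 0.24, adjusted p = 0.608 by edgeR's quasi-likelihood test). Ccng1 (ENSMUSG00000020326.7, chromosome 11, 40748552 to 40755311 on the minus strand), which encodes cyclin G1, a partner of protein phosphatase 2A that acts on Mdm2, had 206, 209 and 199.7 CPM in HSPA1A libraries and 179.7, 187 and 182 CPM in control libraries. Every HSPA1A library was above every control library. The means were 205 ± 4.90 CPM with HSPA1A and 183 ± 3.99 CPM with the control plasmid (SD, n = 3 each), higher in HSPA1A cells, with a log2 fold change of 0.16 (95% interval 0.055 to 0.27, unadjusted p = 0.00703, adjusted p = 0.433 by edgeR's quasi-likelihood test). The groups stayed apart on library totals alone but overlapped on FPKM, at 52.6, 55.9 and 50.7 FPKM in HSPA1A libraries and 47.8, 50.9 and 49.1 FPKM in control libraries.

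Plk2 (ENSMUSG00000021701.7, chromosome 13, 110395046 to 110400844 on the plus strand), a polo-like kinase gene with a role in centriole duplication, had the smallest p of the 10. It stood at 152, 144 and 143 CPM in HSPA1A libraries and 165, 173 and 169.8 CPM in control libraries. All 3 HSPA1A libraries lay below all 3 control libraries on CPM, on library totals alone and on FPKM. The same held for 7.17%, 11% and 13.6% of all tested genes on those scales. The means were 146 ± 4.51 CPM with HSPA1A and 169 ± 4.05 CPM with the control plasmid (SD, n = 3 each), 13.5% lower in HSPA1A cells. The log2 fold change was -0.21 (95% interval -0.32 to -0.098), with an unadjusted p of 0.00175, rank 77 among the 12827 genes, and edgeR's adjusted p was 0.291. Gadd45a (ENSMUSG00000036390.6, chromosome 6, 67035096 to 67037457 on the minus strand) had 462, 481 and 479.6 CPM in HSPA1A libraries and 469, 459 and 463 CPM in control libraries. Its groups overlapped, and its log2 fold change of 0.032 had the narrowest 95% interval of the 10, from -0.074 to 0.14 (adjusted p = 0.884, edgeR's quasi-likelihood test). It overlaps E230016M11Rik on the other strand, which had 114 reads over the 6 libraries, and the sources used here do not state the strand setting of the counting.

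**Figure D3:**
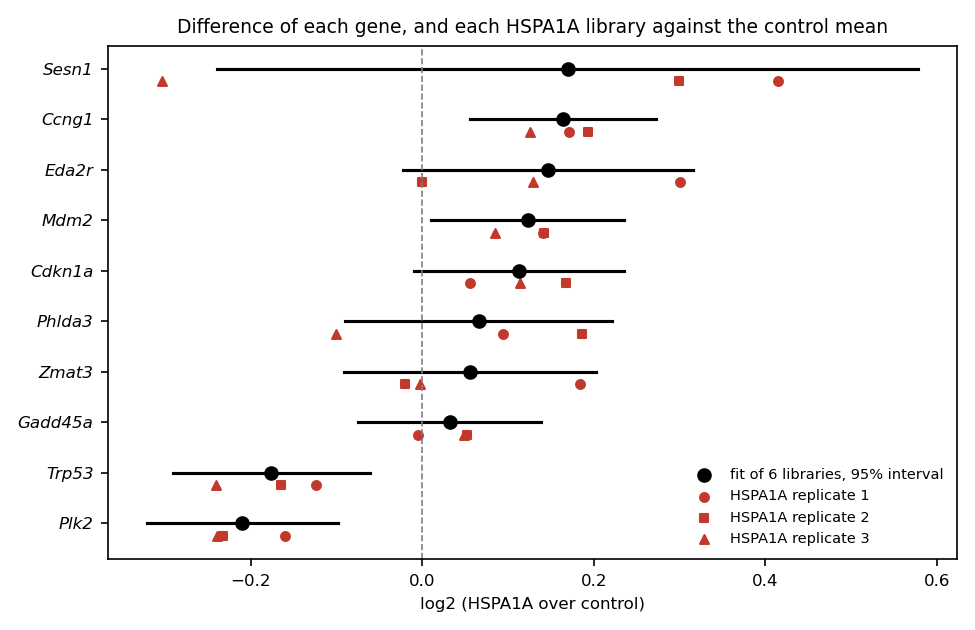
Log2 fold change of HSPA1A over control for each gene (black point, with its 95% interval as a line) and, below it, each HSPA1A library against the control mean. The 3 HSPA1A libraries of Plk2 and Trp53 all lie left of 0 and those of Ccng1, Mdm2 and Cdkn1a all lie right of it, while Sesn1 has the widest interval, from -0.24 to 0.58.

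The other 4 targets overlapped between the groups. Eda2r (chromosome X, 97333840 to 97377216), a receptor gene of the TNF receptor family, had 39.4, 31.9 and 34.9 CPM in HSPA1A libraries and 32.4, 31.2 and 32.2 CPM in control libraries. HSPA1A replicate 1 was well above the rest, and HSPA1A replicate 2 lay among the control libraries. Phlda3 (chromosome 1, 135766119 to 135769136), which encodes a protein that competes with the kinase Akt for membrane lipids, had 86.8, 92.5 and 75.8 CPM in HSPA1A libraries and 80.6, 80.6 and 82.6 CPM in control libraries, with HSPA1A libraries both above and below all control libraries. Zmat3 (chromosome 3, 32334792 to 32366014), an RNA-binding zinc finger protein gene, had 69.8, 60.6 and 61.3 CPM in HSPA1A libraries and 64.5, 59.3 and 60.7 CPM in control libraries. Replicate 1 was the highest in both groups. Sesn1 (chromosome 10, 41809935 to 41908424), which encodes sestrin 1, an inhibitor of growth signalling through mTORC1, had 134, 143 and 84 reads in HSPA1A libraries and 127, 103 and 105 reads in control libraries. With so few reads its 95% interval on the log2 scale ran from -0.24 to 0.58, too wide to tell a difference of the size seen for Ccng1 from none. Its log2 fold change of 0.17 depended on single libraries, at 0.036 without HSPA1A replicate 1 and 0.36 without HSPA1A replicate 3. Without HSPA1A replicate 1 that of Eda2r was 0.065, against 0.15 with all libraries, and that of Phlda3 ran from 0.0021 without HSPA1A replicate 2 to 0.14 without HSPA1A replicate 3. Adjusted p-values by edgeR's quasi-likelihood test were 0.625 for Eda2r, 0.829 for Phlda3, 0.846 for Zmat3 and 0.831 for Sesn1.

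Library by library, the 10 genes differed in direction. Against the control mean, 7 of the 10 were above it in HSPA1A replicate 1, 6 in replicate 2 and 5 in replicate 3. The log2 differences of replicates 1, 2 and 3 were -0.12, -0.16 and -0.24 for Trp53 and -0.16, -0.23 and -0.24 for Plk2, the same sign each time. They were 0.17, 0.19 and 0.13 for Ccng1, 0.14, 0.14 and 0.085 for Mdm2 and 0.056, 0.17 and 0.11 for Cdkn1a, again with 1 sign. For Eda2r they were 0.30, -0.00049 and 0.13, and for Phlda3 0.095, 0.19 and -0.10, so single libraries set those means. The 9 targets together summed to 1589, 1617 and 1569 CPM in HSPA1A libraries and 1534, 1521 and 1526 CPM in control libraries, a sum that Gadd45a and Cdkn1a dominate. On library totals without TMM the sums were 1560.3, 1628 and 1525 CPM in HSPA1A libraries and 1544, 1545 and 1545 CPM in control libraries, and the groups overlapped.

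HSPA1A replicate 2, the library that stood apart, decided the calls. Without it, edgeR called 4 of the 10 genes, against 10.2% of all 12955 genes tested in that fit (5.27% higher, 4.94% lower). At an unadjusted p under 0.05 that fit had 5 of the 10, with Mdm2 added, against 24.8% of all genes (12.7% higher, 12.1% lower). Trp53 and Plk2 were called lower, with log2 fold changes of -0.18 (adjusted p = 0.0269) and -0.20 (adjusted p = 0.0143). Ccng1 and Eda2r were called higher, at 0.15 (adjusted p = 0.0402) and 0.22 (adjusted p = 0.04). For Trp53, Plk2 and Ccng1 the fold change itself hardly differed from that of all 6 libraries, and HSPA1A replicate 2 showed the same direction as its group. For Eda2r, HSPA1A replicate 2 stood at the control mean. Leaving out any 1 of the other 5 libraries gave 0 called genes among the 10.

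Among 45 other known p53 targets, 42 had enough reads to test and 0 passed in edgeR's quasi-likelihood test, against 0.179% of all genes. DESeq2 called 1, the lower Fas, and 63 of all 12827 tested genes, 37 of them lower. Their median log2 fold change was 0.022, with 27 values above 0 and 15 below, and 3 genes had an unadjusted p under 0.05 with HSPA1A higher and 6 with HSPA1A lower, against 4.33% and 4.26% of all tested genes. On library totals alone the median was -0.013 and on log2(FPKM + 1) it was -0.034, on the other side of 0. The groups did not overlap for 8 of the 42, 3 higher and 5 lower, against 14.5% of all tested genes, 7.3% higher and 7.17% lower. HL-1 cells held no more than 1 read over all 6 libraries of Perp and of Rprm, targets in cell adhesion and cell cycle arrest.

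Among the cell death targets, Fas, the gene of a death receptor, had 45, 21 and 40 reads in HSPA1A libraries and 88, 110 and 80 reads in control libraries. The HSPA1A libraries were all lower, with HSPA1A replicate 2 the lowest, and the log2 fold change was -1.32 ± 0.28 (SE, adjusted p = 0.185 by edgeR's quasi-likelihood test, and 0.00967 without HSPA1A replicate 2). Cd82, a tetraspanin gene, stood at 65.0 ± 8.76 CPM with the HSPA1A plasmid and 77.3 ± 1.28 CPM with the control plasmid (SD, n = 3 each), with no overlap (edgeR's adjusted p = 0.482). Trp53inp1, a p53-inducible nuclear protein gene, stood at 21.4 ± 1.44 CPM with HSPA1A and 18.1 ± 2.28 CPM with the control plasmid, in the other direction and with overlap. Bax, Bbc3 and Pmaip1, the BCL2 family genes through which p53 acts on mitochondria, had log2 fold changes of 0.047, -0.022 and 0.082 and overlapping groups. Bax was abundant, at 107 ± 5.15 CPM in HSPA1A libraries and 103 ± 4.68 CPM in control libraries.

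Among the targets in the cell cycle and feedback, Trp53cor1, the p53-induced noncoding RNA lincRNA-p21 that lies near Cdkn1a, was the one most different. It had 81, 105 and 87 reads in HSPA1A libraries and 66, 55 and 63 reads in control libraries, and averaged 3.65 ± 0.213 CPM with the HSPA1A plasmid and 2.36 ± 0.139 CPM with the control plasmid (SD, n = 3 each). All 3 HSPA1A libraries were higher, on CPM, library totals and FPKM alike, with a log2 fold change of 0.63 ± 0.15 (SE). EdgeR's adjusted p was 0.285, and 0.047 without HSPA1A replicate 2. Ppm1d, a phosphatase gene that switches p53 signalling off, and Plk3, a kinase gene related to Plk2, had log2 fold changes of 0.14 and -0.12, and neither passed the test. The secreted cytokine gene Lif stood at 4.48 ± 0.514 CPM with the HSPA1A plasmid and 6.12 ± 0.362 CPM with the control plasmid, and Thbs1, which encodes the matrix protein thrombospondin 1, at 8.34 ± 0.901 CPM with HSPA1A and 6.62 ± 0.106 CPM with the control plasmid. Neither pair of groups overlapped, in opposite directions.

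In metabolism and repair, Fdxr, a mitochondrial reductase gene, stood at 12.6 ± 1.01 CPM with the HSPA1A plasmid and 15.3 ± 1.60 CPM with the control plasmid (SD, n = 3 each), with no overlap. Polh, a translesion DNA polymerase gene, stood at 6.48 ± 0.755 CPM with HSPA1A and 7.77 ± 0.342 CPM with the control plasmid, also with no overlap, and neither passed the test. Dram1, an autophagy regulator gene, had 27, 65 and 28 reads in HSPA1A libraries and 78, 60 and 58 reads in control libraries. HSPA1A replicates 1 and 3 were low, and HSPA1A replicate 2 was at the control level. Without HSPA1A replicate 2, edgeR's quasi-likelihood test called 6 of the 42, with Trp53cor1 higher and Fas, Cd82, Lif, Dram1 and Ddit4 lower, against 10.2% of all genes in that fit, 5.27% higher and 4.94% lower. Ddit4, another mTORC1 inhibitor gene, then had a log2 fold change of -0.21 (adjusted p = 0.0248).

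**Figure D4:**
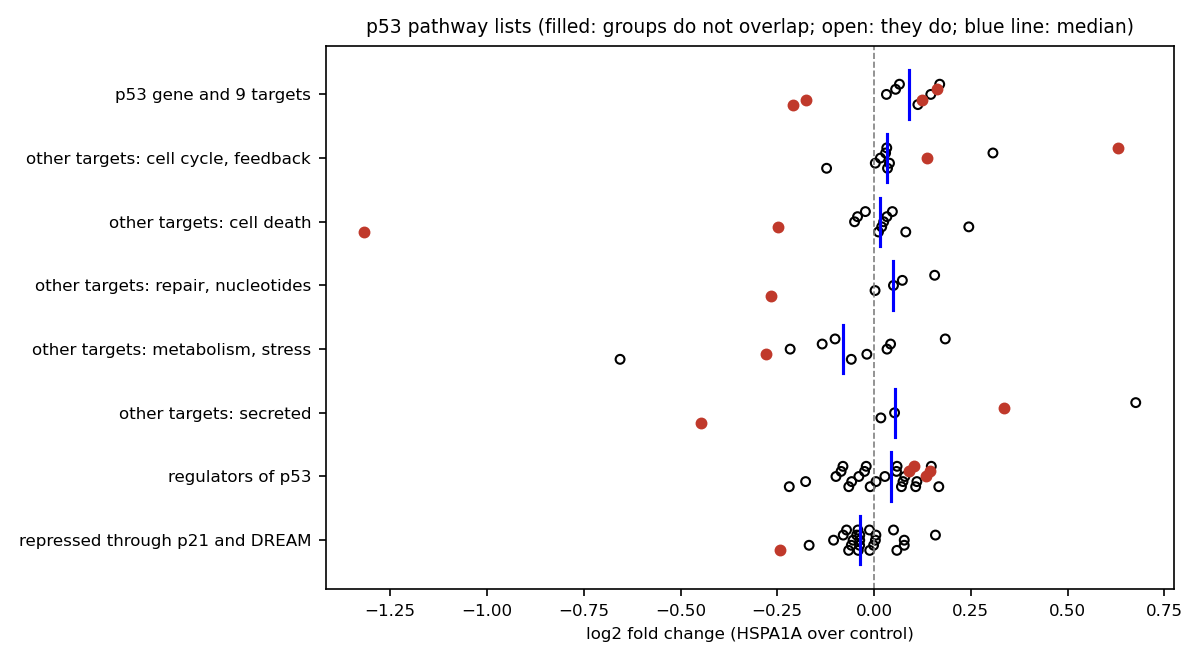
Log2 fold change of HSPA1A over control for every tested gene of the p53 pathway lists, from the fit of all 6 libraries. Filled points are genes whose HSPA1A and control libraries do not overlap on CPM, open points genes whose groups do, and blue lines list medians. Medians lie between -0.080 and 0.089, and the points farthest from 0 are Fas at -1.32 and Igfbp3 at 0.68.

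Genes that act on p53 were tested in 26 of 28 cases, with 0 called by edgeR or by DESeq2, and a median log2 fold change of 0.043. An unadjusted p under 0.05 was found for 3 of the 26, all higher, against 8.59% of all tested genes in either direction and 4.33% higher. These 3 were Usp7, the gene of a deubiquitinase that stabilises Mdm2 and p53, and Rpl11 and Rpl5, ribosomal proteins that bind Mdm2 when ribosome assembly fails. Usp7 stood at 119.8 ± 3.25 CPM with the HSPA1A plasmid and 108 ± 3.41 CPM with the control plasmid, with no overlap on CPM, library totals or FPKM (SD, n = 3 each; adjusted p = 0.506, edgeR's quasi-likelihood test). Rpl11 stood at 759.7 ± 29.4 CPM with HSPA1A and 693 ± 18.4 CPM with the control plasmid, and its groups overlapped on FPKM. Rpl5 overlapped, at 1851, 1661 and 2001 CPM in HSPA1A libraries and 1566, 1699 and 1644 CPM in control libraries. Without HSPA1A replicate 2 all 3 were called higher, by edgeR's quasi-likelihood test, at log2 fold changes of 0.16, 0.15 and 0.24, in a fit that called 10.2% of all genes and 5.27% higher. Ppp1r13b, which encodes the p53 cofactor ASPP1, had a value of -0.22 on the log2 scale and missed the threshold (edgeR's adjusted p = 0.591). Cdkn2a, whose ARF product blocks Mdm2, and Trp53rk were not analysed here.

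Cell cycle genes that p53 represses through p21 and the DREAM repressor complex were all 24 tested, and 0 passed in edgeR's quasi-likelihood test, with 1 at an unadjusted p under 0.05, against 8.59% of all tested genes, and a median log2 fold change of -0.037. DESeq2 called 0. That 1 gene was Kif23, a kinesin gene of cell division, at 25.8 ± 2.16 CPM with the HSPA1A plasmid and 30.5 ± 1.37 CPM with the control plasmid (SD, n = 3 each; edgeR's adjusted p = 0.434). Aurkb, a mitotic kinase gene, and Foxm1, a transcription factor gene of the cell cycle, had log2 fold changes of -0.17 and -0.10, and their groups overlapped. Without HSPA1A replicate 2, Kif23 and Aurkb were called lower, in a fit that called 4.94% of all genes lower.

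Of 14 listed relatives of the 10 genes, 13 were in the table and 7 had enough reads to test, with 0 called by edgeR's quasi-likelihood test or by DESeq2, and 1 higher and 1 lower at an unadjusted p under 0.05, against 8.59% of all tested genes. Phlda1, a relative of Phlda3, stood at 138 ± 8.12 CPM with the HSPA1A plasmid and 154 ± 7.01 CPM with the control plasmid, with no overlap. Gadd45g, a relative of Gadd45a, stood at 43.7 ± 3.21 CPM with HSPA1A and 38.5 ± 2.03 CPM with the control plasmid, with overlap (SD, n = 3 each). The third family member, Gadd45b, stood at 3.76 ± 0.549 CPM with HSPA1A and 3.58 ± 0.152 CPM with the control plasmid. Cdkn1b, the gene of the p21 relative p27, had a log2 fold change of -0.098 and overlapped. Without HSPA1A replicate 2, Phlda1 was called lower (log2 fold change -0.19) and Gadd45g higher (0.24), again in the fit that called 10.2% of all genes.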

How the data were processed

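Polyadenylated RNA from HL-1 cells was sequenced as 6 stranded, paired-end libraries, per the labels' protocols. The authors deposited whole read counts per gene for 22913 genes and FPKM, scaled by gene length and library size and rounded, for 22833 of them (per the file headers). Named in the submitters' processing notes are GRCm38, TopHat2, bcl2fastq and edgeR. Counter, strand setting and annotation: not given in the sources used here. Columns left unused numbered 0.

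Counts were normalised by TMM and fitted on all genes kept by filterByExpr (minimum count 10, minimum total 15) with edgeR 4.0.16 (glmQLFit, glmQLFTest) under R 4.3.3, HSPA1A against control, without covariates, with Benjamini-Hochberg adjustment over 12827 genes and a threshold of 0.05. The fit was also run on simulated counts with changes larger than those of the 10 genes and no library that stood apart. That run does not give the power for these genes. CPM values are scaled by TMM. Intervals are at 95% from the fit. FPKM was used for levels between genes.

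Alternatives used edgeR, DESeq2 1.42.0 and limma 3.58.1. Positions came from GENCODE M21, by symbol, and promoters from RefSeq (GRCm38.p6). Figures used matplotlib 3.10.9. The rule named the 10 genes, Mdm4, Trp63, Trp73 and, per list, up to 4 genes by p and up to 6 called without HSPA1A replicate 2. Bax, Bbc3, Perp, Rprm and Yam1 were named after their values were seen. The members and lists were chosen with earlier results of these data known.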

Additional observations from a re-analysis of the deposited data

How the results depend on the processing

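None of the 10 genes was called under any alternative other than leaving out HSPA1A replicate 2. Trp53, Plk2, Ccng1, Mdm2, Cdkn1a, Eda2r, Phlda3 and Sesn1 kept their direction, though not their size, under every alternative in which they were tested, although the groups of Mdm2 and Ccng1 overlapped on FPKM and those of Mdm2 on library totals. Zmat3 was at -0.0025, -0.0030 and -0.0025 with log2(FPKM + 1), log2(FPKM + 0.1) and log2(FPKM + 1) over genes of mean FPKM at least 1, and between -0.011 and 0.095 over the fits without 1 library, the lowest without HSPA1A replicate 1 and the highest without HSPA1A replicate 2. Gadd45a was at -0.026 in each of those 3 FPKM fits and at -0.0037 on library totals alone. The FPKM fits and library totals moved the median of all genes to between -0.055 and -0.033. The cause of these reversals was not tested.

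The count of members with an unadjusted p under 0.05, a count added after the data were seen, was 2 in the 3 FPKM fits and 3 to 6 over the fits without 1 library. The members called numbered 0 to 4 over the fits without 1 library, other p53 targets called 0 to 6, p53 regulators called 0 to 3, genes repressed through p21 and DREAM 0 to 3, relatives 0 to 2, and all genes 10 to 1323. All genes called were 205 with no filter on low counts, 63 with DESeq2 and 15 in each FPKM fit, against 23. Other p53 targets called were 2 with no filter (Fas and Cd82) and 1 with DESeq2 (Fas). With the replicate number as a replicate block, 16 genes were called and 0 of the 10. The correlations of same-numbered deviations from the group means were -0.10, -0.0015 and 0.085, and those of different numbers ran from -0.090 to 0.091. They show no pairing by number, but with 3 libraries per group they cannot exclude it.

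Sesn1 was not tested at 5 CPM in 3 libraries. Among the 10 genes depth limits Sesn1, with 84 to 143 reads per library and the widest interval.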
